A study of Saccharomyces cerevisiae with 6 samples.

Results

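Signal from an anti-FLAG chromatin immunoprecipitation was measured at 10 heat shock and chaperone genes of the budding yeast Saccharomyces cerevisiae, of 5980 protein-coding genes with windows on the 16 nuclear chromosomes. The genes were chosen by name, as the cytosolic Hsp70s SSA1, SSA2, SSA3 and SSA4, the Hsp90s HSC82 and HSP82, and the disaggregase HSP104. The others were the small heat shock proteins HSP42 and HSP26 and the small membrane-associated stress protein HSP12. All 10 were found in the R64 gene table. SSA1, SSA2 and HSC82 were taken as the 3 constitutive members and the other 7 as stress-induced, from textbook knowledge of their expression.

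The genotypes compared were 3 WT samples (strain OAy1102) and 3 rpd3Δ samples (strain YHy17), and in the latter the gene for the histone deacetylase Rpd3 is deleted. Every culture, of about 100 mL, was grown in YEPD at 23 °C to an OD near 0.5. All were then held in G1 for about 4 h with the mating pheromone α-factor at about 5 nM, cross-linked with 1% formaldehyde and precipitated with the anti-FLAG antibody M2. No sample was heat shocked according to the labels, which name no tagged protein and give no clone numbers. Chaperone genes lie outside the question in the series title, which is about origins of replication, Fkh1 and the ribosomal DNA (rDNA). Whether samples of 1 genotype are separate cultures is not said, so p-values reflect sample-to-sample spread that may be technical only.

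Heat shock proteins of the Hsp70 and Hsp90 families bind unfolded or partly folded proteins and use ATP to help them fold, while small heat shock proteins hold unfolding proteins without ATP. In yeast their genes are activated mainly by the transcription factor Hsf1 and by the general stress factors Msn2 and Msn4. Some members are made abundantly in growing cells, and others are nearly silent until heat, ethanol, starvation or another stress raises their transcription many-fold.

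Summed bin counts per sample ran from 3987250 to 6785491, of which 37.1% to 49.7% lay in the rDNA in WT and 56.0% to 63.97% in rpd3Δ. The counts outside the rDNA ran from 1857785 to 3715335. Signal at RPD3 was 0.854 ± 0.0955 times the mean bin in WT and 0.0982 ± 0.0214 times in rpd3Δ (SD, n = 3), which checks the genotype labels. BAR1, whose product breaks down α-factor, had 0 counts throughout, so both genotypes share its loss. Signal at the rDNA gene RDN25 was 286, 232 and 660 times the mean bin outside the rDNA in WT and 579, 1255 and 1274 times in rpd3Δ. By that measure WT replicate 3 stood apart from the other WT samples and rpd3Δ replicate 1 from the other rpd3Δ samples.

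Signal is given as the mean count per 50 bp bin of a window over the median bin of the 20 kb centred on the start codon, called times local background here. That median was 4 to 17 counts at the 10 genes, so the ratios are coarse. The counts in a member's window ran from 89 to 502 upstream, from 26 to 2017 in the body and from 46 to 1842 in the 500 bp after the stop codon. No unprecipitated DNA was analysed here, so a ratio can also hold differences in how well DNA is recovered.

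Over the coding sequence, the constitutive Hsp70 and Hsp90 genes had higher levels than most other genes. HSC82, the constitutive Hsp90 (YMR186W, chromosome XIII, 632355 to 634472, plus strand), had a body signal of 2.59, 2.82 and 2.44 times local background in WT and 2.31, 2.59 and 2.56 times in rpd3Δ. SSA2 (YLL024C, XII, 95566 to 97485, minus strand), a constitutive cytosolic Hsp70, stood at 1.89, 2.38 and 2.06 times in WT and 2.05, 1.88 and 1.93 times in rpd3Δ. Its close relative SSA1 (YAL005C, I, 139503 to 141431, minus strand) stood at 2.09, 2.02 and 1.75 times in WT and 1.91, 1.91 and 2.29 times in rpd3Δ. The genotypes overlapped at all 3 genes. In WT their mean body levels exceeded those of 97.8%, 96.1% and 95.1% of genes, in that order.

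The stress-induced members were spread more widely over their bodies. HSP82, the heat-inducible Hsp90 (YPL240C, XVI, 96496 to 98625, minus strand), was the highest, at 1.84, 1.74 and 1.58 times local background in WT and 1.60, 1.60 and 1.49 times in rpd3Δ. The body of HSP104, which pulls proteins out of aggregates (YLL026W, XII, 88623 to 91349, plus strand), followed at 1.47 ± 0.112 times in WT and 1.35 ± 0.164 times in rpd3Δ (SD, n = 3). HSP12, a small membrane-associated stress protein (YFL014W, VI, 107256 to 107585, plus strand), stood at 1.19 ± 0.135 and 0.902 ± 0.137 times in the same order. The aggregase HSP42 (YDR171W, IV, 806621 to 807748, plus strand), the inducible Hsp70 SSA4 (YER103W, V, 364589 to 366517, plus strand) and the small heat shock protein HSP26 (YBR072W, II, 382030 to 382674, plus strand) lay near their surroundings, at WT means of 1.03, 0.967 and 0.952 times. SSA3 (YBL075C, II, 84499 to 86448, minus strand), an Hsp70 made in stress and stationary phase, was the lowest, at 0.678, 0.769 and 0.722 times in WT and 0.826, 0.709 and 0.755 times in rpd3Δ. Only 7.5% of genes had a lower WT body level than SSA3.

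In the order of WT body levels, all HSC82 samples lay above all SSA2 samples, while the range of SSA1 overlapped those of SSA2 and HSP82. Without the last 500 bp of each body HSC82 and SSA2 overlapped, at 2.08, 2.19 and 1.98 times against 1.81, 2.22 and 1.65 times. Over whole bodies, HSP82 overlapped HSP104, which lay above HSP12. HSP12, HSP42, SSA4 and HSP26 each overlapped the next in the order, and SSA3 lay just below the lowest HSP26 sample. The median body level of the 3 constitutive members was 2.18 ± 0.175 times local background in WT and 2.08 ± 0.193 times in rpd3Δ (SD over samples, n = 3). That of the 7 stress-induced members was 1.06 ± 0.0946 and 1.02 ± 0.0597 times, close to the median of all genes, 0.998 ± 0.00167 times in WT. These class medians describe 10 chosen genes and were not tested.

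Reads shared between near-identical paralogs limit these body values. SSA1 and SSA2 are close copies, as are HSC82 and HSP82, and SSA3 and SSA4 are more distant relatives. How reads with several matches were placed is not given in the sources used here, so signal can have been split between copies.

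**Figure D1:**
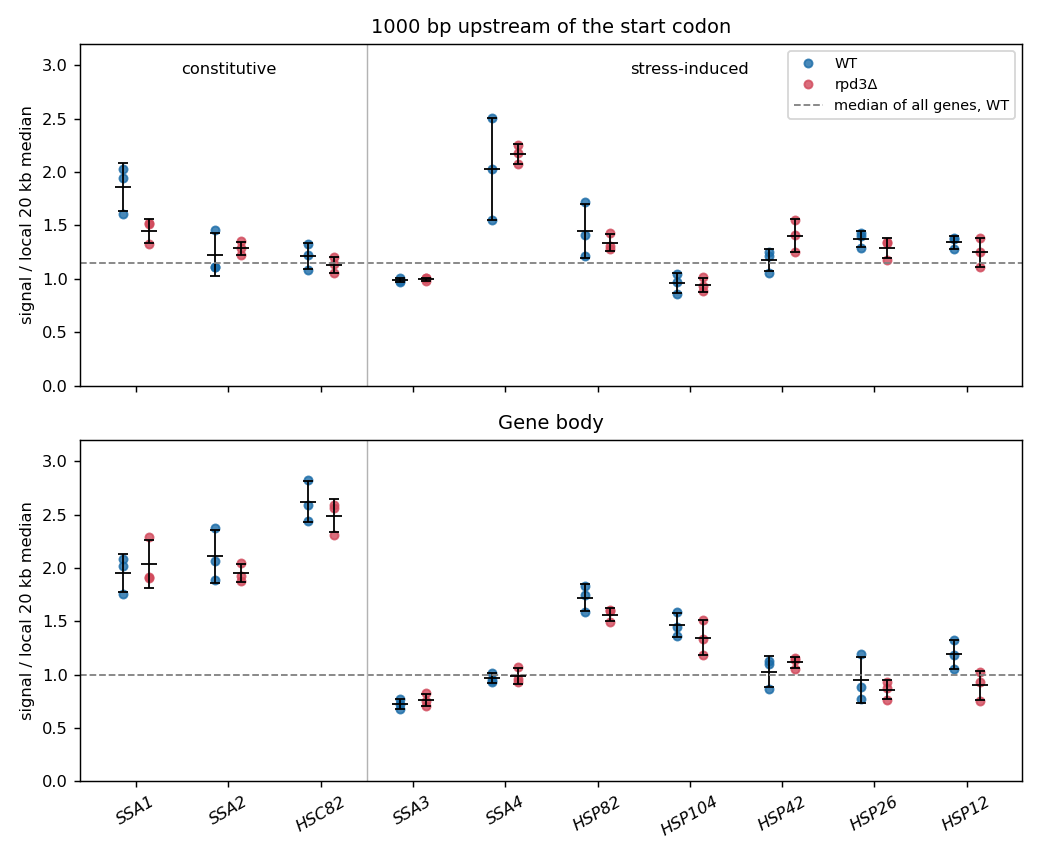
Signal over the median bin of the surrounding 20 kb (y axis) at the 1000 bp upstream of the start codon (top) and in the gene body (bottom) of each of the 10 genes, constitutive to the left of the grey line. Points are single samples, black bars the mean ± SD of 3 samples, and the dashed line the WT median of all genes. The 3 constitutive bodies sit between 1.75 and 2.82 in all samples, while upstream the SSA4 and SSA1 windows are the highest.

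Over the 1000 bp before the start codon, the classes did not stand apart. The median upstream level was 1.30 ± 0.175 times local background over the constitutive members and 1.30 ± 0.0641 times over the stress-induced ones in WT, and 1.29 times for both in rpd3Δ. The median of all genes was 1.14 ± 0.0272 times in WT. At or above 2 times local background in WT were 1 of the 10 upstream windows (10.1% of all genes) and 2 of the 10 bodies (4.63% of all genes). The window after the stop codon was added once the profiles of these genes had been seen. Its count, 4 of the 10 (9.9% of all genes), is therefore a description only. At or above 1 times were 8 upstream windows (67.4% of all genes) and 7 bodies (49.6%).

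The inducible Hsp70 gene SSA4 had the highest upstream signal. It stood at 2.02, 2.51 and 1.55 times local background in WT and at 2.18, 2.26 and 2.07 times in rpd3Δ, above the WT level of 90.1% of genes. The samples of both genotypes overlapped, with WT replicate 2 the highest and WT replicate 3 the lowest of the 6. The signal of SSA4 was 2.20 ± 0.445 times in the 500 bp farther from the start codon in WT and 1.86 ± 0.606 times in the nearer 500 bp (SD, n = 3). The gene RPS8B, for a ribosomal protein, ends inside the farther stretch, and its contribution was not tested.

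The constitutive SSA1 was the next, at 1.94, 2.03 and 1.61 times in WT and 1.51, 1.32 and 1.52 times in rpd3Δ. All 3 WT samples lay above all 3 rpd3Δ samples. In WT the level was 2.26 ± 0.296 times in the 500 bp next to the start codon and 1.46 ± 0.203 times in the 500 bp before that. The translation factor gene EFB1, with the small nucleolar RNA gene SNR18 inside it, overlaps the farther stretch.

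The other 8 upstream windows had WT means from 0.959 to 1.45 times. HSP82 stood at 1.45 ± 0.256 times in WT and 1.34 ± 0.0786 times in rpd3Δ, HSP26 at 1.37 ± 0.0740 and 1.29 ± 0.0927, and HSP12 at 1.34 ± 0.0583 and 1.25 ± 0.135 (SD, n = 3). SSA2, HSC82 and HSP42 had WT means of 1.23, 1.21 and 1.17 times. SSA3 and HSP104 were at their surroundings, with WT means of 0.988 and 0.959 times. The windows of SSA2, SSA3, HSC82, HSP104 and HSP12 lie in an annotated neighbour, POM33, AAR2, RTP1, ISA1 and YFL015C, over 10 or more of their 20 bins. HSP42 and HSP26 had all 20 bins outside annotated genes.

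Upstream signal relative to body signal ordered the 10 genes by a log2 ratio. The ratio was highest at SSA4, 1.09, 1.30 and 0.73 in WT and 1.19, 1.28 and 0.95 in rpd3Δ. HSP26, SSA3, HSP42 and HSP12 followed with WT means of 0.55, 0.45, 0.20 and 0.18. SSA1, HSP82, HSP104 and SSA2 had WT means of -0.07, -0.26, -0.61 and -0.79. HSC82 was the lowest, at -1.26, -1.20 and -0.89 in WT and -0.94, -1.19 and -1.28 in rpd3Δ, below all but 1.26% of genes. Of the 10 genes, 5 had a WT mean above 0 (64.3% of all genes), all of them stress-induced, and the median over all genes was 0.18 ± 0.04 (SD, n = 3). HSP82 and HSP104 were the stress-induced members below 0. The HSP104 and HSC82 bodies each hold part of a peak past the stop codon. Without its last 500 bp the HSP104 body stood at 0.919 times local background in WT, and its upstream window at 0.959 times. The HSC82 body cut in the same way stood at 2.08 times in WT, and its upstream window at 1.21 times.

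**Figure D2:**
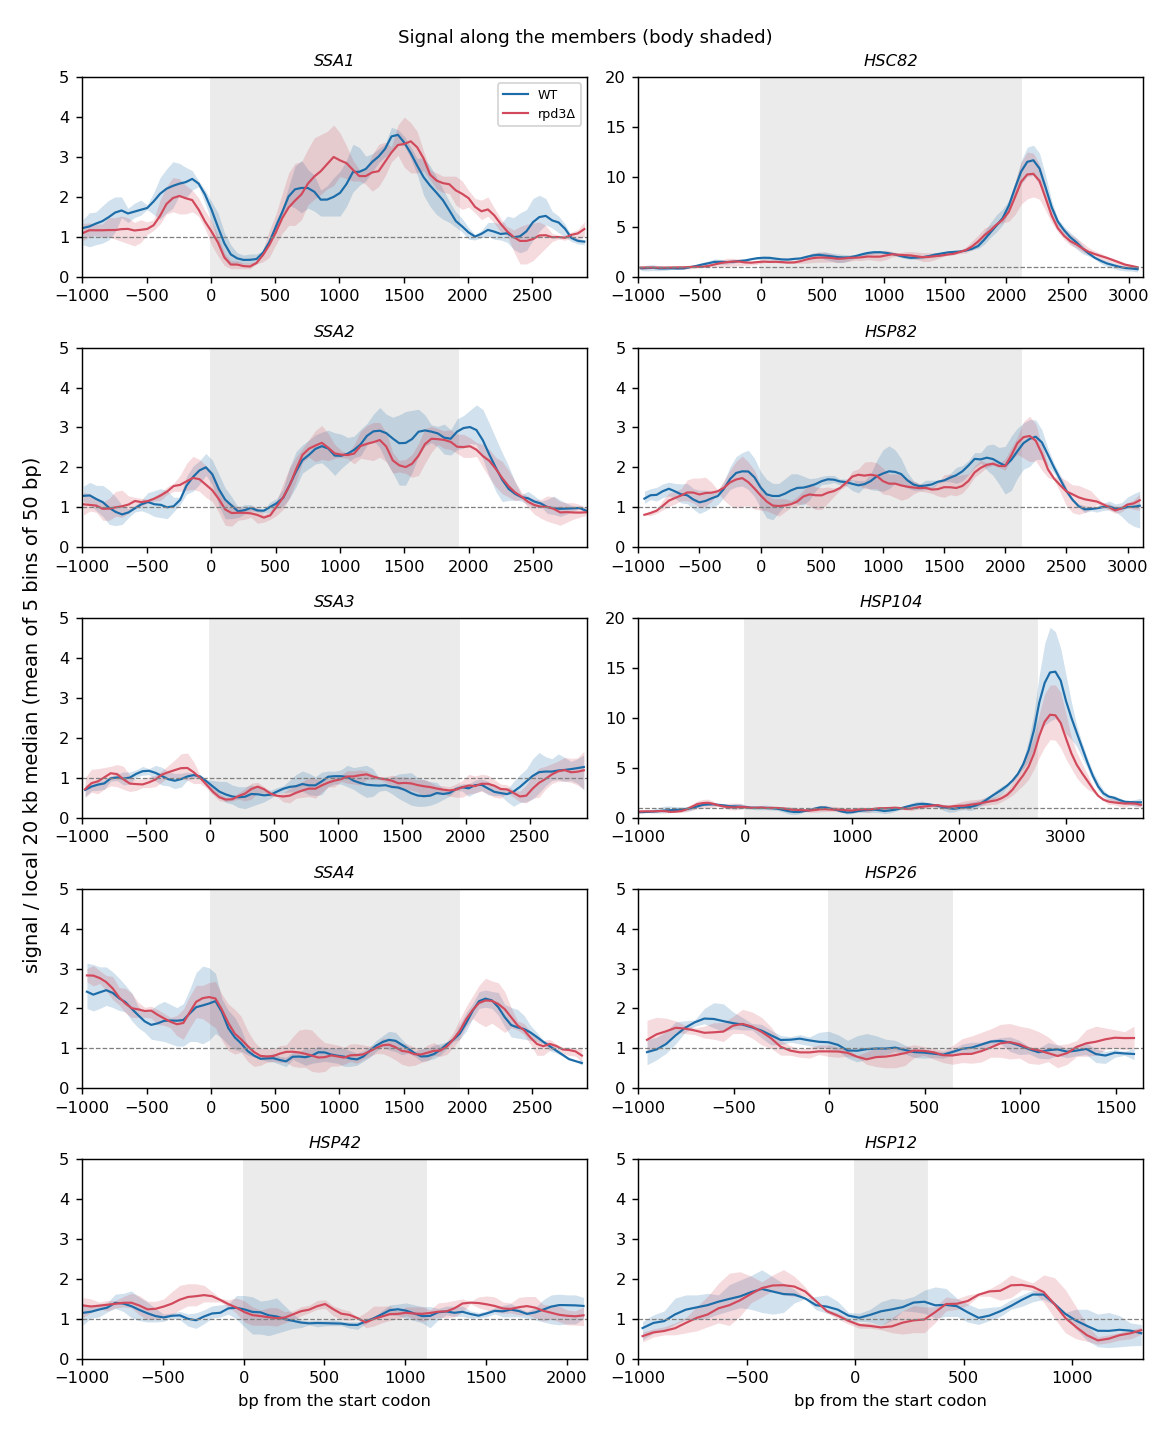
Signal over the local 20 kb median (y axis, mean of 5 bins of 50 bp) against distance from the start codon (x axis, bp) along each gene, with the body shaded grey. Lines are means of 3 samples, bands run from the lowest to the highest sample, and HSC82 and HSP104 have a y axis to 20 in place of 5. The signal of SSA1 and SSA2 dips after the start codon and rises towards the stop codon, while that of HSC82 and HSP104 peaks past the stop codon.

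Along the bodies, the signal of the constitutive Hsp70 genes was higher towards the stop codon. The SSA1 body was cut into 3 equal parts, with WT levels, from start to stop codon, of 0.884 ± 0.150, 2.30 ± 0.369 and 2.68 ± 0.165 times local background (SD, n = 3). The same parts of the SSA2 body had 1.13 ± 0.209, 2.43 ± 0.433 and 2.76 ± 0.543 times. Between 100 and 500 bp after the start codon SSA1 lay below its surroundings, at 0.643, 0.350 and 0.400 times in WT and 0.357, 0.357 and 0.275 times in rpd3Δ. This stretch was chosen after its values had been seen. SSA2 had 0.876 ± 0.125 times in the same stretch in WT, SSA3 0.550 ± 0.243 times and SSA4 0.948 ± 0.183 times. The highest stretch of 250 bp was centred 1455.5 bp from the start codon of SSA1, at 3.56 ± 0.221 times in WT, and 1709.5 bp from that of SSA2, at 2.90 ± 0.240 times. The SSA3 body had no such rise, with WT levels of 0.608, 0.913 and 0.648 times in the same order.

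At the Hsp90 genes and at HSP104 the highest signal lay beyond the stop codon, which led to the window of 500 bp after it being added once the profiles had been seen. After HSP104 (XII, 91350 to 91849) the level was 12.03, 14.2 and 8.41 times local background in WT and 9.91, 7.62 and 5.92 times in rpd3Δ. After HSC82 (XIII, 634473 to 634972) it was 9.04, 8.36 and 7.11 times in WT and 8.61, 7.15 and 5.87 times in rpd3Δ. Each was many times its local background in all 6 samples, and the genotypes overlapped. In WT these levels exceeded those of 99.4% and 99.1% of all genes. The 250 bp peak was centred 175.5 bp past the stop codon of HSP104, at 14.6 ± 4.40 times in WT and 10.3 ± 2.81 times in rpd3Δ. It was centred 102.5 bp past that of HSC82, at 11.7 ± 1.51 and 10.3 ± 2.20 times (SD, n = 3).

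The peaks reached into the ends of the coding sequences. The last 250 bp of the body had 5.88 ± 0.825 times local background at HSC82 and 5.38 ± 0.421 times at HSP104 in WT. In the second 500 bp after the stop codon the level was down to 1.39 ± 0.197 times at HSC82 and 2.01 ± 0.308 times at HSP104. Without its last 500 bp, the HSC82 body still stood at 2.08 ± 0.104 times in WT and 1.90 ± 0.237 times in rpd3Δ. The HSP104 body without its last 500 bp was at 0.919 ± 0.0840 and 0.975 ± 0.0349 times, at its surroundings. The other bodies high in signal kept most of it when trimmed in the same way, with WT means of 1.76 times at SSA1, 1.90 times at SSA2 and 1.59 times at HSP82.

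The annotation differs between the 2 sites. The 500 bp after HSP104 hold no annotated gene, and the next, the tRNA gene YNCL0001W, starts 1198 bp past the stop codon. HSC82 faces YMR187C, on the opposite strand, across 216 bp. The gene table gives no replication origins, so whether either interval holds one was not examined. HSP104 and SSA2 lie 4216 bp apart, so their local backgrounds share bins.

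The remaining windows after the stop codon were lower. HSP82 had 2.09 ± 0.287 times in WT and 2.03 ± 0.216 times in rpd3Δ, with its highest 250 bp centred 69.5 bp past the stop codon at 2.71 ± 0.615 times in WT. SSA2 had 2.20 ± 0.522 and 1.99 ± 0.131 times, and SSA4 1.86 ± 0.196 and 1.97 ± 0.398 times. SSA1, HSP12, HSP42 and HSP26 had WT means from 1.05 to 1.32 times, and SSA3 had 0.705 ± 0.170 times. The WT median over all genes was 1.12 ± 0.0215 times (SD, n = 3).

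**Figure D3:**
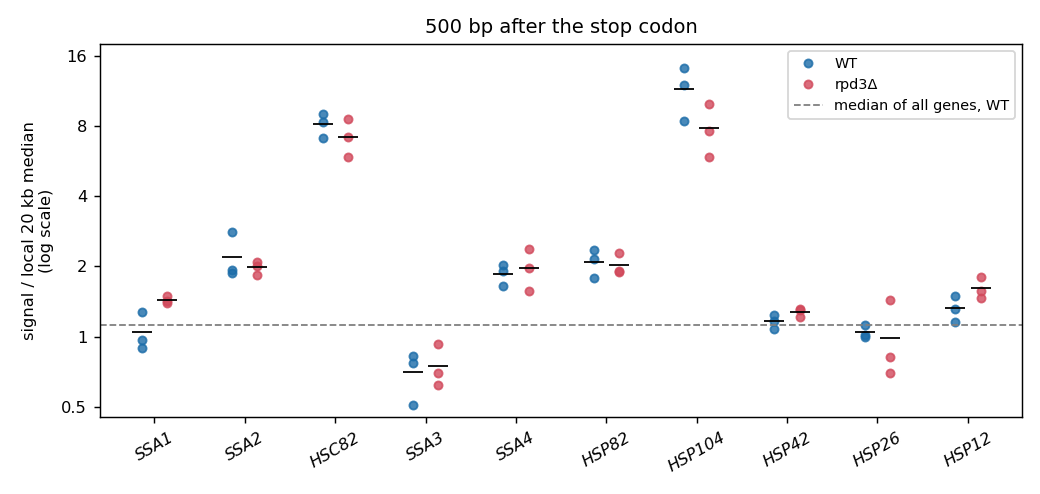
Signal over the local 20 kb median in the 500 bp after the stop codon (y axis, log scale) for each gene. Points are single samples, black bars means of 3 samples, and the dashed line the WT median of all genes. HSP104 and HSC82 lie between 5.87 and 14.2 in all 6 samples, above the other 8 genes.

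rpd3Δ was next compared with WT at each window, on counts scaled to signal outside the rDNA. No member passed the threshold of 0.05 in any window by edgeR's quasi-likelihood test with Benjamini-Hochberg adjustment over all genes. Upstream, 0 of the 10 genes passed (5.99% of 5973 genes, 104 higher and 254 lower), and 3 had an unadjusted p under 0.05 (19.4% of genes). With library sizes by TMM over the windows themselves, the genes passing were 209 higher and 201 lower. In bodies, 0 of 10 passed (7.19% of 5965 genes) and 2 had an unadjusted p under 0.05 (20.8%). After the stop codon, 0 of 10 passed (3.35% of 5967 genes) and 2 had an unadjusted p under 0.05 (16.6%). DESeq2 passed 0 upstream windows, 0 bodies and 1 downstream window, that of HSP104. Its downstream counts over all genes are given below, with the other alternatives. The DESeq2 counts over all genes upstream and in bodies are not given here, so nothing is read from 0 passing there. The median log2 fold change of the 10 genes was 0.03 upstream, 0.05 in bodies and 0.08 downstream, and that of all genes -0.05, 0.01 and 0.01.

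The upstream window of SSA1 had 13.3, 14.2 and 10.2 scaled counts per bin for WT and 9.99, 9.58 and 10.3 for rpd3Δ. WT replicate 3 lay within the rpd3Δ range, and the other WT samples above it. The log2 fold change by edgeR was -0.35 (SE 0.13, adjusted p = 0.0983), and without WT replicate 3 it was -0.47 with an adjusted p of 0.0213 in the same edgeR test. The window passed in no other omission of a sample. The count of all genes passing without WT replicate 3 is not given here, so nothing is read from that call. Relative to local background the SSA1 window was the 1 of 10 whose genotypes did not overlap (13.7% of all genes), with an exact two-sided permutation p of 0.1, the smallest that 3 against 3 samples allow. Downstream of SSA1, where the tRNA gene TRN1 lies, the direction was the opposite. There the level was 0.971, 0.890 and 1.28 times local background in WT and 1.43, 1.40 and 1.50 times in rpd3Δ (edgeR log2 fold change 0.51, SE 0.21, adjusted p = 0.152), again without overlap, as at 1 of the 10 genes (13.8% of all genes).

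HSP104 differed most after its stop codon. Scaled counts there, per bin, came to 106, 129 and 74.9 for WT and 84.1, 63.2 and 48.1 for rpd3Δ. rpd3Δ replicate 1 lay above WT replicate 3, so the genotypes overlapped. The log2 fold change was -0.67 (SE 0.26), with an adjusted p of 0.138 by edgeR and 0.0322 by DESeq2. Without rpd3Δ replicate 1 it was -0.89, with an adjusted p of 0.00834 by edgeR. This window passed in no other omission of a sample. The count of all genes passing in that omission is not given here, so nothing is read from the call. Over the 6 samples the level after HSP104 was lower the higher the RDN25 signal was, from WT replicate 2 to rpd3Δ replicate 3. The level after the J protein gene JJJ3 had the same order of samples, and that after HSC82 did not. The part of rDNA signal in the difference at HSP104 was not tested. After HSC82 the scaled counts came to 106, 99.6 and 81.3 for WT and 122, 88.9 and 79.5 for rpd3Δ, a log2 fold change of 0.02 (SE 0.27, adjusted p = 0.990 by edgeR). Between those 2 sites the difference in fold change was not tested. The HSP104 body had a log2 fold change of -0.23 (SE 0.10, adjusted p = 0.167 by edgeR), and -0.34 with an adjusted p of 0.0309 by edgeR without rpd3Δ replicate 1. The body too passed in no other omission, and the same limit holds for its call. Its last 250 bp, which hold part of the peak, stood at 5.38 ± 0.421 times local background in WT and 4.27 ± 1.25 times in rpd3Δ. Without its last 500 bp the body stood at 0.919 ± 0.0840 and 0.975 ± 0.0349 times (SD, n = 3). The trimmed body was not tested.

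HSP12 had the lowest counts of the 10 genes, 26 to 83 per sample over a body of 7 bins. Its body had 9.08, 8.31 and 6.72 scaled counts per bin for WT and 3.91, 6.36 and 5.03 for rpd3Δ. Its upstream window had 9.39, 8.94 and 8.77 in WT and 7.16, 7.77 and 6.02 in rpd3Δ. Neither window had overlapping genotypes, with edgeR log2 fold changes of -0.67 (SE 0.26, adjusted p = 0.112) and -0.36 (SE 0.15, adjusted p = 0.150). The local background of HSP12 was lower in rpd3Δ too, 6.74 ± 0.341 scaled counts per bin over the WT samples and 5.61 ± 0.542 in rpd3Δ (SD, n = 3). Relative to it the upstream levels overlapped, at 1.37, 1.27 and 1.38 times in WT and 1.38, 1.25 and 1.11 times in rpd3Δ. The body levels, at 1.33, 1.19 and 1.06 times in WT and 0.753, 1.02 and 0.929 times in rpd3Δ, did not overlap, at 1 of the 10 bodies (17.3% of all genes).

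HSP42, the small heat shock protein that gathers misfolded proteins, had an upstream window with 11.9, 9.64 and 12.7 scaled counts per bin for WT and 14.7, 14.6 and 13.5 for rpd3Δ. The rpd3Δ samples were all above the WT ones, by an edgeR log2 fold change of 0.34 (SE 0.13, adjusted p = 0.122). With TMM over the windows it was 0.39 with an adjusted p of 0.0401 by edgeR, a scaling whose counts over all genes are given above. SSA4 had 15.8, 17.6 and 13.8 scaled counts per bin upstream in WT and 18.5, 18.7 and 19.6 in rpd3Δ, a log2 fold change of 0.26 (SE 0.14, adjusted p = 0.324 by edgeR). Both directions turned when libraries were scaled by total signal, where the upstream median of all genes was -0.55. In scaled counts the genotypes did not overlap at 3 of the 10 upstream windows (22.7% of all genes), 3 bodies (23.9%) and 2 downstream windows (19.8%).

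At the other 6 genes the upstream log2 fold changes by edgeR lay between -0.12 at HSP104 and 0.10 at HSC82. The constitutive SSA2 had 0.01 (SE 0.13) upstream and -0.16 (SE 0.10) in the body. HSC82 and HSP82 had body log2 fold changes of 0.11 (SE 0.08) and 0.04 (SE 0.09). Those of SSA3 and HSP26 were 0.16 (SE 0.12) and -0.10 (SE 0.19).

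The ratio of upstream to body signal passed in 0 of the 10 genes (0.0503% of 5961 genes) by edgeR's test of the interaction, and 1 had an unadjusted p under 0.05 (8.24% of genes). That was SSA1, with log2 ratios of -0.10, 0.01 and -0.12 in WT and -0.33, -0.53 and -0.59 in rpd3Δ, a difference of -0.41 (SE 0.18, adjusted p = 0.514 by edgeR). Every rpd3Δ ratio lay below every WT ratio at SSA1. SSA2 was separated in the opposite direction. Its lowest rpd3Δ ratio, -0.62, lay above its highest WT ratio, -0.71, with a difference of 0.18 (SE 0.18, adjusted p = 0.812 by edgeR). How many of all genes had separated ratios is not given here, so nothing is read from either separation. Apart from SSA1, the differences of the other 9 genes ran from -0.06 at SSA3 to 0.31 at HSP12. DESeq2 was not run on this ratio.

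**Figure D4:**
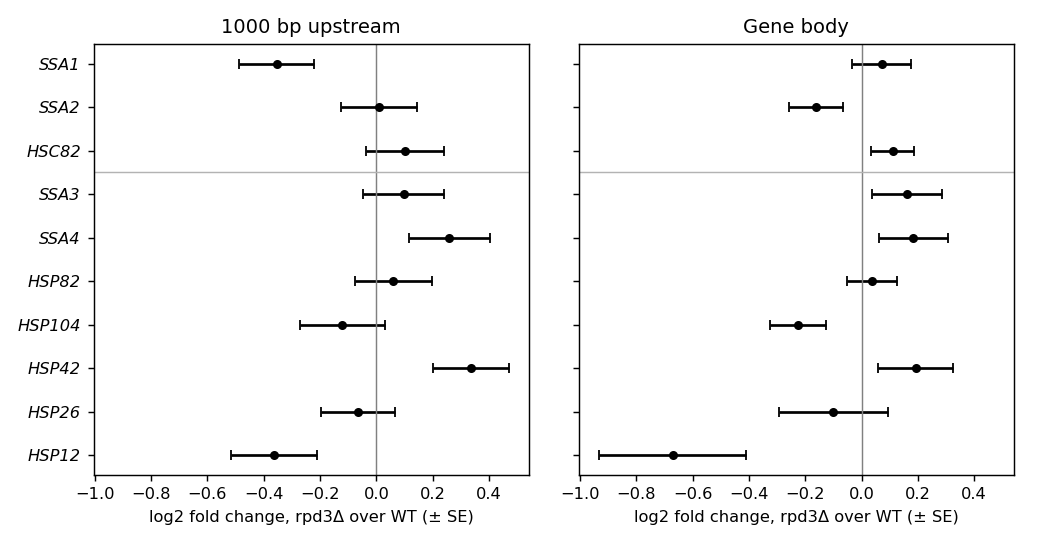
Log2 fold change of rpd3Δ over WT by edgeR (x axis) in the upstream window (left) and the body (right) of each gene, 3 samples a genotype. Points are fitted values and bars ± 1 SE. Values run from -0.36 at HSP12 to 0.34 at HSP42 upstream and from -0.67 at HSP12 to 0.19 at HSP42 in bodies.

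The wider chaperone network was read from 8 lists with 66 genes, of which 65 had enough counts in bodies and downstream. In rpd3Δ, 0 passed as higher and 1 as lower upstream, 2 as higher and 3 as lower in bodies, and 2 as higher and 0 as lower downstream, by edgeR over all genes, where 5.99%, 7.19% and 3.35% passed in these windows. The lists' counts in bodies and downstream were thus near the share over all genes, and the count upstream was below it. HSP31, a stress-induced methylglyoxalase, was the upstream gene, with 1.84 ± 0.117 times local background in WT and 1.38 ± 0.245 times in rpd3Δ (log2 fold change -0.68, SE 0.14, adjusted p = 0.000686 by edgeR, n = 3). With the local background as offset its edgeR adjusted p was 0.314. KAR2, the Hsp70 of the endoplasmic reticulum, fell over its body from 1.80 ± 0.130 to 1.32 ± 0.10 times (log2 fold change -0.52, SE 0.10, adjusted p = 0.000493 by edgeR, n = 3), and its adjusted p was 0.00722 with that offset. HSP31 and KAR2 passed without each of the 6 samples in turn.

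Among the Hsp40 J proteins, which stimulate Hsp70 ATPases, 1 of 11 bodies was higher and 2 were lower, against 7.19% of the bodies of all genes in either direction, a small count from which nothing is read about the family. SIS1 had a body log2 fold change of -0.56 (adjusted p = 0.0110 by edgeR; 0.0828 without rpd3Δ replicate 2). JJJ3 had -0.44 and XDJ1 0.40 (adjusted p of 0.0133 and 0.0226 by edgeR). The JJJ3 body stood at 5.49 ± 1.33 times local background in WT and 4.25 ± 0.954 times in rpd3Δ (SD, n = 3). The 500 bp after its stop codon had 24.4 ± 5.24 times in WT, and their share in the body value was not tested. JJJ3 lost its call without WT replicate 1, WT replicate 2 or rpd3Δ replicate 2, and XDJ1 without WT replicate 2, WT replicate 3 or rpd3Δ replicate 2. The mitochondrial Hsp70 SSQ1 had 0.35 in its body (adjusted p = 0.0483 by edgeR) and lost its call in 4 of the 6 omissions, all but those of WT replicate 3 and rpd3Δ replicate 3, and by DESeq2 (adjusted p = 0.0710). SIS1, JJJ3, XDJ1 and SSQ1 did not pass with the local background as offset, with edgeR adjusted p from 0.209 to 0.683.

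Downstream of SGT1, an Hsp90 co-chaperone, the log2 fold change was 0.82 (adjusted p = 0.00138 by edgeR; 0.0741 without WT replicate 1; 0.0242 with the local background as offset). Downstream of HSF1, the gene of the heat shock factor itself, it was 0.56 (adjusted p = 0.0432 by edgeR), a call that held in 1 of the 6 omissions, that of rpd3Δ replicate 3, and was lost with the local background as offset (log2 fold change 0.43, adjusted p = 0.398 by edgeR). In 3 lists 0 genes passed in any window. Their highest upstream WT levels were 1.65 times at SNL1 and 1.25 times at SSE1 among nucleotide exchange factors of Hsp70. They were 1.05 times at SSZ1 and 0.934 times at SSB2 among ribosome-associated chaperones, and 2.15 times at CCT6 and 1.44 times at CCT8 in the TRiC chaperonin, which folds actin and tubulin.

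The 3 genes whose upstream levels were closest to those of SSA4 over the 6 samples were SMT3, GNP1 and STM1, at Euclidean distances of 0.233, 0.266 and 0.269 in log2 of times local background. SMT3, which encodes the yeast SUMO protein, had 2.17, 2.47 and 1.69 times in WT and 2.38, 2.20 and 1.93 times in rpd3Δ. This likeness is a description over 6 samples that share their libraries.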

How the data were processed

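The deposited values were counts of reads per 50 bp bin, 241434 bins per sample, not normalized. Per the submitters' processing notes, the R64 build, Bowtie2, SAMtools and bedtools made them; their versions, any removal of duplicates and the placing of multiply matching reads are not given in the sources used. Reads spanning 2 bins count in both, so sums exceed reads.

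Windows were set by RefSeq's R64 gene table, and a bin belonged to a window by its midpoint. Those averaging fewer than 10 counts were not tested. Library sizes were set by TMM on 10 kb bins, 1193 in all, clear of the rDNA (XII, 450786 to 490469) and the deleted genes. Scaled counts are counts over the effective library size times its mean. edgeR 4.0.16 in R 4.3.3 tested every gene with no covariate. The test of upstream over body signal had library as a block. Each SE was the size of the log2 fold change divided by the square root of the test's F. DESeq2 1.42.0 was an alternative, and the tests were checked on simulated data. Tables and plots used matplotlib 3.10.9, scipy 1.17.1, pandas 2.3.3, numpy 2.4.6 and Python 3.11.15.

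Alternatives were other library sizes, a local offset, no filter on low counts, leaving out each sample, a replicate block, 500 bp upstream, bins in no gene, and other backgrounds. Named were all 10 members, RPD3, BAR1, overlapping genes, and from each list up to 4 genes past the threshold or, with 0 passing, the 2 highest upstream. The members, classes and lists were chosen with earlier results of these data known.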

Additional observations from a re-analysis of the deposited data

How the results depend on the processing

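Depth limits most what can be said of HSP12, whose body held 26 to 83 counts per sample. Scaling by total signal, rDNA included, moved the median of all windows to -0.55 upstream, -0.50 in bodies and -0.50 downstream on the log2 scale. Under it 6 upstream windows, 9 bodies and 3 downstream windows of the 10 genes passed, and over all genes 1 upstream window was higher and 4247 lower, 2 bodies higher and 4302 lower, and 1 downstream window higher and 2599 lower. Under the same scaling log2 fold changes turned at the upstream windows of SSA2 (-0.50), SSA3 (-0.41), SSA4 (-0.25), HSP82 (-0.45), HSC82 (-0.40) and HSP42 (-0.17). They turned at the bodies of SSA1 (-0.45), SSA3 (-0.35), SSA4 (-0.32), HSP82 (-0.47), HSC82 (-0.40), HSP42 (-0.32), XDJ1 (-0.11) and SSQ1 (-0.16). Downstream, only 5 windows were followed through the alternatives, not those of all members. Of these 5, that of HSC82 turned (-0.48). With the local background as offset log2 fold changes turned upstream at HSP82 (-0.12) and HSC82 (-0.092) and in the bodies of HSP82 (-0.14) and HSC82 (-0.077). Of the 5 downstream windows followed, that of HSC82 turned (-0.18). With 500 bp upstream HSC82 turned (-0.030). The cause was not tested.

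Of the 10 upstream windows, 1, that of HSP42, passed with TMM over the windows and with DESeq2 size factors. The counts over all genes with TMM are given above, and with DESeq2 size factors only the higher ones, below. Nothing is read from that 1 window. Leaving out each sample passed 0 to 1 of 10 in each kind of window: SSA1 upstream without WT replicate 3, and the HSP104 body and downstream window without rpd3Δ replicate 1. The counts of all genes are given below only as ranges over the omissions, so nothing is read from these calls. The DESeq2 test passed 1 downstream window of the 10. Over all alternatives the adjusted p of the HSP104 downstream window ran from 0.00834 to 0.561. Leaving out samples moved log2 fold changes from -0.072 to 0.14 at SSA2 upstream, -0.029 to 0.14 in the SSA1 body, -0.23 to 0.073 in the HSP26 body and -0.18 to 0.14 downstream of HSC82.

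Over all genes, upstream calls higher in rpd3Δ were 209 with TMM over the windows, 199 with DESeq2 size factors, 6 with the local offset, 20 with 500 bp, 33 with bins in no gene and 22 to 109 with a sample left out. Lower calls were 12 with the local offset, 75 with 500 bp, 113 with bins in no gene and 83 to 346 with a sample left out. In bodies 42 were higher and 66 lower with the local offset, and 108 to 299 and 90 to 203 with a sample left out. Downstream 56 were higher and 56 lower by DESeq2, 23 and 14 with the local offset, and 13 to 114 and 18 to 116 with a sample left out. The upstream to body ratio gave 8 higher and 5 lower calls with TMM over the windows or DESeq2 size factors, 0 and 0 with 500 bp, and 0 to 3 and 1 to 12 with a sample left out.

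Whether replicate numbers shared by the genotypes pair the samples was not settled. Over 10 kb bins the deviations of same-numbered samples correlated at 0.291, -0.165 and 0.439 (Pearson's r across bins). WT replicates 1 and 3 correlated best with their own number. WT replicate 2 correlated best with rpd3Δ replicate 1 (0.440). Other-numbered samples ran from -0.525 to 0.440. Deviations of 3 samples from their own mean depend on each other, so this check cannot decide. With the replicate block, 1 downstream window of the 10 passed, that of HSP104 (adjusted p = 0.0206 by edgeR). The count of all downstream windows passing with the block is not given here, so nothing is read from that 1 window. Upstream, 167 windows of all genes were higher and 361 lower with the block. No other call on a named gene changed.

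Times local background, as medians over genes in WT and rpd3Δ, changed with the denominator and window. With the mean of the surrounding 20 kb they were 1.11 and 1.10 upstream and 1.04 and 1.02 in bodies over all 10 genes. Over the constitutive members they were 0.870 and 0.983 upstream and 1.65 and 1.71 in bodies, and over the stress-induced ones 1.13 and 1.12 upstream and 0.944 and 0.901 in bodies. With the median of 50 kb they were 1.37 and 1.38 upstream and 1.40 and 1.33 in bodies over all 10, and 1.51 and 1.45 upstream over the constitutive members, whose WT body median was 2.56. With 500 bp upstream they were 1.42 and 1.46 over all 10, 1.58 and 1.54 over the constitutive members and, in rpd3Δ, 1.42 over the stress-induced ones. With bins in no gene they were 1.41 and 1.41 over all 10 and 1.60 and 1.52 over the constitutive members. Single genes were followed through the alternatives at 11 upstream windows, 15 bodies, 5 downstream windows and 1 upstream to body ratio. Not all windows and ratios of the members and lists were among these. Of the values followed, 394 kept direction and side of the threshold, 16 gained a call, 29 lost one and 29 turned.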

Other observations

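Some genes of the chaperone lists had far higher signal than the 10 members upstream or downstream, and they were chosen after their values were seen. The 500 bp after JJJ3, a J protein gene on chromosome X, had 24.4 ± 5.24 times local background in WT and 15.3 ± 5.96 times in rpd3Δ (SD, n = 3; log2 fold change -0.75, SE 0.32, adjusted p = 0.177 by edgeR). The upstream window of ECM10, which encodes a mitochondrial Hsp70 (chromosome V), had 12.7 ± 3.04 and 8.997 ± 3.09 times (log2 fold change -0.63, adjusted p = 0.238 by edgeR). That of CUR1, a protein sorting factor (XVI), had 5.22 ± 1.00 and 3.43 ± 0.817 times (log2 fold change -0.64, adjusted p = 0.106 by edgeR). At JJJ3, ECM10 and CUR1 the samples of both genotypes overlapped. The upstream windows of the 4 stress regulators listed had 2.19 ± 0.152 times in WT for MSN2, 1.98 ± 0.189 for SKN7, 1.91 ± 0.315 for HSF1 and 1.77 ± 0.147 for MSN4. All 4 were above local background in WT, where 67.4% of all genes were at or above 1 times. Their log2 fold changes in rpd3Δ were -0.02, -0.36, -0.01 and -0.29 in that order. SKN7 and MSN4 had adjusted p of 0.172 and 0.224 by edgeR, and in scaled counts the genotypes overlapped at SKN7 and did not at MSN4 (22.7% of all genes did not).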
